A study of Homo sapiens with 64 samples.

Results

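The 9 genes FGF2, FGF5, VEGFA, VEGFC, PDGFA, PDGFB, NRG1, HGF and BDNF encode secreted growth and neurotrophic factors that act on receptor tyrosine kinases. They were taken by name: a probe set belonged to the group when its gene symbol in the platform annotation was one of these, and 1 probe set stood for each gene, that of highest mean across the 64 arrays. This gave 9 of the 18132 genes measured, and 44 of the 44994 probe sets that carry a single gene symbol. The cells were BEAS-2B, a virus-transformed line from human bronchial epithelium, kept in serum-free medium overnight before exposure, so that every group shares this starvation. The combination groups received 100 nM budesonide, a glucocorticoid, together with 10 nM formoterol, a long-acting β2-adrenoceptor agonist. The budesonide groups and the formoterol groups received the single drug at the same dose, and the untreated groups received none. No vehicle is named for the untreated cells. Cells were collected after 1, 2, 6 and 18 h, which makes 16 groups of 4 arrays. The arrays within a group are described as independent determinations from this single line, so a p-value measures the spread between these samples and not between donors.

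Values are log2 expression per probe set, on which a difference of 1 is a doubling. The median of all values was 4.90 and the lower quartile 3.02, and the medians of the arrays lay between 4.87 and 4.95. Levels of different genes are not compared, since probe sets differ in brightness at equal RNA. Of 10 epithelial markers measured, 5 lay at or above the median in untreated cells, among them KRT18 at 11.2 and KRT8 at 9.39, while EPCAM at 2.57 and SCGB1A1 at 2.76 lay under the lower quartile. Of 10 fibroblast and smooth muscle markers 4 lay at or above the median, with COL1A1 at 8.53 and PDGFRB at 8.55. This was so for 0 of 7 endothelial markers, 1 of 6 leukocyte markers (CD68, with PTPRC at 1.99) and 2 of 5 neuronal markers. The mean of the 10 epithelial markers at the 4 times lay between 5.07 and 5.53 in combination cells, 5.10 and 5.47 in budesonide cells, 5.33 and 5.48 in formoterol cells, and 5.29 and 5.41 in untreated cells. That of the 5 neuronal markers reached 6.31 with the combination and 6.13 with budesonide, against at most 5.34 with formoterol and 5.25 in untreated cells, and its most variable gene, MAP2, had group means between 3.49 and 8.70. The difference between the 3′ and 5′ actin control probe sets, a sign of RNA integrity, was highest in replicate 1 in all 12 groups of 1, 6 and 18 h and in replicate 3 in all 4 groups of 2 h. The part of these markers in the results was not tested.

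Fibroblast growth factors, vascular endothelial growth factors, platelet-derived growth factors, neuregulins, hepatocyte growth factor and brain-derived neurotrophic factor bind receptors whose kinase activity starts the MAP kinase and PI3 kinase cascades. Airway epithelial cells release several of them, and they act on neighbouring fibroblasts, smooth muscle, endothelium and nerves as well as on the epithelium. Budesonide activates the glucocorticoid receptor, a transcription factor, while formoterol raises cyclic AMP, which activates protein kinase A and the transcription factor CREB.

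BDNF rose within 1 h of formoterol. On the probe set used, VEGFA rose within 1 h of formoterol too, and fell from 2 h on with budesonide. The VEGFA calls at 1 h of formoterol and 2 h of budesonide were lost with the mean of its probe sets. Other probe sets ran the same way and were called in 24 of 24 cases for BDNF, but in 15 of 72 for VEGFA. FGF5 fell with both drugs, down to 7.05-fold lower at 6 h of the combination. FGF2 and VEGFC fell at 6 and 18 h of budesonide and of the combination. NRG1 fell at 18 h of both, and at 6 h of the combination and of formoterol. Its formoterol call was lost with the mean of its probe sets. PDGFA passed in 3 and PDGFB in 1 of 12 comparisons with untreated cells, and HGF lay at background. Of the 36 pairs of gene and time, 19 passed the test with the combination (4 higher, 15 lower), 14 with budesonide (all lower) and 9 with formoterol (5 higher, 4 lower). A call here is an adjusted p under 0.05 in limma's moderated test, with Benjamini-Hochberg adjustment over all 18132 genes. In RNA from whole cultures, fewer cells of a kind and less RNA per cell cannot be told apart.

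Set beside all genes, the calls among the 9 factors were as follows. With the combination, 2, 2, 0 and 0 factors were higher at 1, 2, 6 and 18 h, where 1.63%, 3.84%, 8.61% and 10.3% of all genes were, and 1, 3, 5 and 6 were lower, where 1.13%, 5.65%, 9.95% and 10.7% of all genes were. With budesonide, none was higher at any of the 4 times, where 0.667%, 1.69%, 6.12% and 8.56% of all genes were, and 0, 4, 5 and 5 were lower, where 0.331%, 2.26%, 8.12% and 9.78% were. At 1 h of budesonide 1 factor had an unadjusted p under 0.05 in limma, FGF5, and it was lower. With formoterol, 2, 2, 1 and 0 were higher, where 1.02%, 2.31%, 2.76% and 0.469% of all genes were, and 0, 1, 2 and 1 were lower, where 0.32%, 2.29%, 2.06% and 0.64% were. At an unadjusted p under 0.05, limma gave FGF5 as lower at 1 h of formoterol, and PDGFB as higher and NRG1 as lower at 18 h. At 2 h of formoterol 5 factors had such a p, among them the 3 that were called. The 3 sets of comparisons share the untreated arrays.

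**Figure D1:**
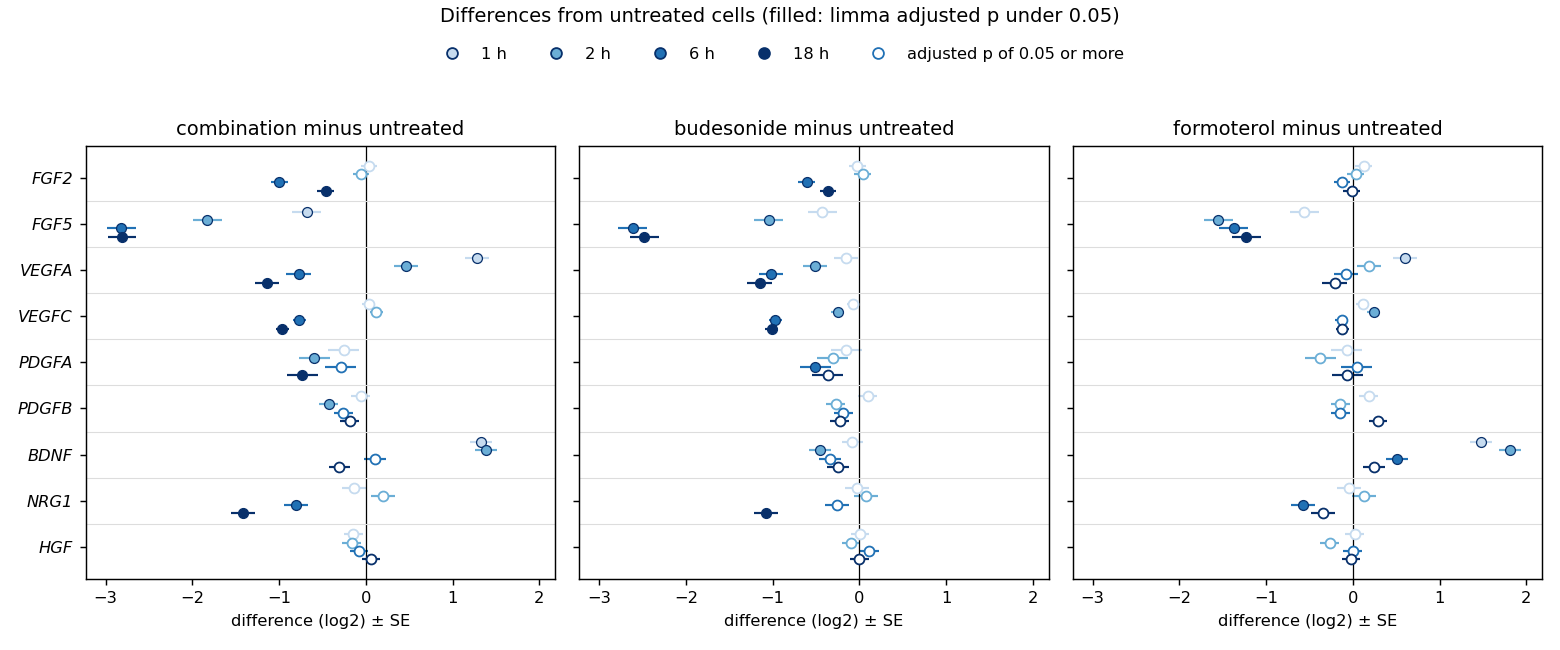
Log2 difference (± SE) of each factor for combination minus untreated, budesonide minus untreated and formoterol minus untreated cells, with 1, 2, 6 and 18 h from top to bottom within each gene and darker with time. Filled points passed limma's adjusted p under 0.05. FGF5 reaches -2.82 with the combination, and BDNF lies above 0 at 1 and 2 h with the combination and with formoterol.

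**Figure D2:**
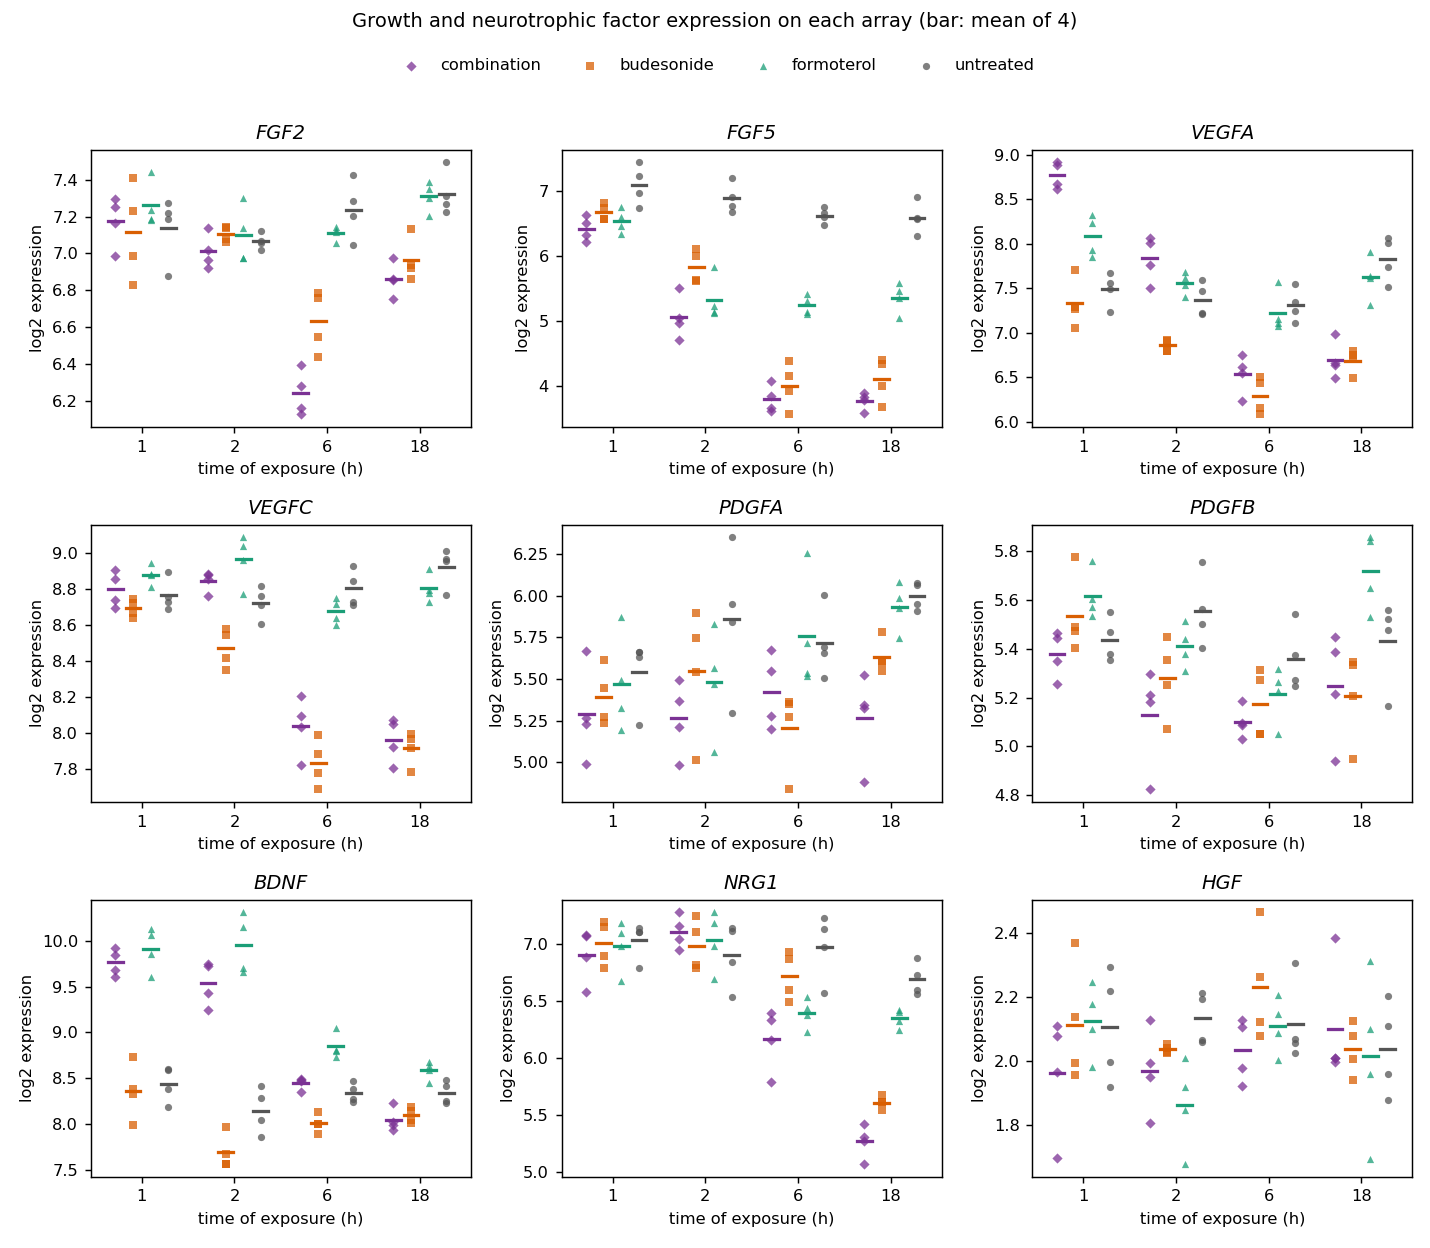
Log2 expression of the 9 factors on each of 64 arrays against time of exposure, with combination, budesonide, formoterol and untreated cells from left to right at each time. Points are arrays and bars the mean of 4 arrays, and the vertical scale differs between panels. BDNF stands high in combination and formoterol cells at 1 and 2 h, and FGF5 lowest in combination and budesonide cells at 6 and 18 h.

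FGF2, basic fibroblast growth factor, is a mitogen for many mesenchymal and epithelial cells and is held on heparan sulfate outside the cell. The gene spans chr4:122826682-122898236 (GRCh38.p14). At 6 h FGF2 measured 6.28, 6.39, 6.13 and 6.16 in combination cells, 6.76, 6.79, 6.55 and 6.44 in budesonide cells, and 7.06, 7.13, 7.12 and 7.14 in formoterol cells, against 7.28, 7.42, 7.20 and 7.04 in untreated cells. Every combination array lay below every budesonide array, and every budesonide array below every untreated array, while formoterol and untreated cells overlapped. FGF2 was 2.00-fold lower with the combination (SE 0.10 on the log2 scale, adjusted p = 3.87e-13) and 1.52-fold lower with budesonide (log2 difference -0.61 ± 0.10, adjusted p = 1.21e-06). At 18 h it measured 6.86, 6.75, 6.86 and 6.98 in combination cells and 6.86, 7.13, 6.94 and 6.92 in budesonide cells, against 7.31, 7.50, 7.27 and 7.23 in untreated cells. Both treated groups still lay wholly below the untreated arrays, by -0.46 ± 0.10 with the combination (adjusted p = 0.000124) and -0.36 ± 0.10 with budesonide (adjusted p = 0.00352). No formoterol comparison of FGF2 passed, with differences between -0.12 and 0.12.

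The 250 bases before the start of FGF2 are shown because they hold TGACG, the 5-letter core of the cAMP response element to which CREB binds, in a gene that formoterol did not move past the test. They are the RefSeq sequence of GRCh38.p14 at chr4:122826581-122826830 on the plus strand, with the core in capitals, 21 bases before the start.
FGF2 promoter: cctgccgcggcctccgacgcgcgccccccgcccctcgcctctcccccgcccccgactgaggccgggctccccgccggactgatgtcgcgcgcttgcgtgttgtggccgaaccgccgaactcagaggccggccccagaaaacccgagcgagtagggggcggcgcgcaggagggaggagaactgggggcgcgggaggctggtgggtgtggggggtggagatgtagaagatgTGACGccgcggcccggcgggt

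FGF5 is a secreted fibroblast growth factor known in mice as the signal that ends hair growth, and its gene lies at chr4:80266588-80291017. It had the widest range of the 9 genes, between a group mean of 3.78 in combination cells at 18 h and 7.10 in untreated cells at 1 h. At 2 h FGF5 measured 5.04, 4.71, 5.51 and 4.97 in combination cells, 6.00, 5.61, 6.11 and 5.64 in budesonide cells and 5.23, 5.13, 5.84 and 5.12 in formoterol cells, against 6.90, 6.76, 7.19 and 6.68 in untreated cells. Every treated array lay below every untreated array, and combination and formoterol cells overlapped. The decrease was 3.55-fold with the combination (-1.83 ± 0.17, adjusted p = 1.06e-13), 2.07-fold with budesonide (-1.05 ± 0.17, adjusted p = 4.28e-06) and 2.94-fold with formoterol (adjusted p = 6.92e-11).

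At 6 h FGF5 measured 3.85, 4.08, 3.62 and 3.67 in combination cells, 4.39, 3.92, 3.57 and 4.15 in budesonide cells and 5.11, 5.13, 5.31 and 5.42 in formoterol cells, against 6.66, 6.75, 6.59 and 6.48 in untreated cells. Combination and budesonide cells overlapped, and both lay below all formoterol arrays, which lay below all untreated arrays. The decrease was 7.05-fold with the combination (-2.82 ± 0.17, adjusted p = 9.69e-22), 6.11-fold with budesonide (-2.61 ± 0.17, adjusted p = 4.17e-20) and 2.60-fold with formoterol (-1.38 ± 0.17, adjusted p = 4.63e-09). At 18 h FGF5 averaged 3.78 ± 0.13 in combination cells, 4.11 ± 0.33 in budesonide cells and 5.36 ± 0.23 in formoterol cells, against 6.59 ± 0.25 in untreated cells (SD, n = 4 each). It was still 7.01-fold, 5.58-fold and 2.34-fold lower with the combination, budesonide and formoterol (adjusted p = 1.22e-21, 3.34e-19 and 1.05e-06).

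At 1 h FGF5 measured 6.51, 6.22, 6.63 and 6.32 in combination cells, against 7.24, 6.97, 7.44 and 6.74 in untreated cells, and the groups did not overlap. The difference of -0.68 ± 0.17 passed (adjusted p = 0.00704), but not without untreated replicate 3 (-0.57, adjusted p = 0.0753), without combination replicate 2 (-0.61, adjusted p = 0.0545) or without all arrays numbered 1 (-0.67, adjusted p = 0.104). With formoterol at 1 h the difference was -0.56 ± 0.17 (adjusted p = 0.0875), and in a fit blocked on replicate number it passed (adjusted p = 0.0473). The 250 bases before the first start of FGF5, the gene that fell most, are the RefSeq sequence of GRCh38.p14 at chr4:80266338-80266587 on the plus strand. They are given in lower case throughout because no searched motif lay in them.
FGF5 promoter 1: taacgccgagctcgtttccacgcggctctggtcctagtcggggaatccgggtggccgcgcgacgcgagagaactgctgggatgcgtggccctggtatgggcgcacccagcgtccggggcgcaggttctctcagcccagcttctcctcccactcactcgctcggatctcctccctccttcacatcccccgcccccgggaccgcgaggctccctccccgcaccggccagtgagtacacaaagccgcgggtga

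VEGFA, the main angiogenic factor, acts on endothelial cells through KDR and makes vessels leaky, and its gene lies at chr6:43770211-43786487. At 1 h VEGFA measured 8.67, 8.62, 8.92 and 8.88 in combination cells, 7.29, 7.05, 7.27 and 7.71 in budesonide cells and 7.93, 7.85, 8.23 and 8.33 in formoterol cells, against 7.49, 7.23, 7.55 and 7.68 in untreated cells. Every combination array lay above every formoterol array, every formoterol array above every untreated array, and budesonide and untreated cells overlapped. VEGFA was 2.43-fold higher with the combination (1.28 ± 0.14, adjusted p = 1.06e-10) and 1.51-fold higher with formoterol (0.60 ± 0.14, adjusted p = 0.00701). The formoterol call was lost without untreated replicate 2 (0.51, adjusted p = 0.0842), formoterol replicate 3 (0.55, adjusted p = 0.053) or formoterol replicate 4 (0.52, adjusted p = 0.0678).

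At 2 h VEGFA measured 8.07, 7.50, 8.01 and 7.76 in combination cells, 6.80, 6.80, 6.91 and 6.92 in budesonide cells and 7.62, 7.40, 7.69 and 7.54 in formoterol cells, against 7.22, 7.21, 7.59 and 7.46 in untreated cells. Budesonide cells lay wholly below untreated cells, and combination cells overlapped them from above. The difference was 0.46 ± 0.14 with the combination (adjusted p = 0.02) and -0.52 ± 0.14 with budesonide (adjusted p = 0.0161). The combination call was lost without untreated replicate 1 or 2 or without combination replicate 1 or 3 (0.39 to 0.41, adjusted p = 0.0812 to 0.11). The budesonide call was lost without untreated replicate 3 or 4 or budesonide replicate 2 (-0.50 to -0.44, adjusted p = 0.0553 to 0.101). Both calls were lost without all arrays numbered 1 (0.33, adjusted p = 0.317, and -0.55, adjusted p = 0.0629). With the compared arrays alone the combination call was lost too (adjusted p = 0.0566).

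Later VEGFA lay below untreated cells wherever budesonide was present. At 6 h it measured 6.55, 6.61, 6.23 and 6.75 in combination cells and 6.51, 6.15, 6.08 and 6.43 in budesonide cells, against 7.55, 7.24, 7.11 and 7.35 in untreated cells. At 18 h it measured 6.64, 6.49, 6.66 and 6.99 in combination cells and 6.79, 6.70, 6.49 and 6.75 in budesonide cells, against 8.01, 7.74, 7.52 and 8.07 in untreated cells. At both times the treated and untreated arrays did not overlap, and combination and budesonide cells did. The difference with the combination was -0.78 ± 0.14 at 6 h (adjusted p = 1.1e-05) and -1.14 ± 0.14 at 18 h (adjusted p = 9.44e-10), and with budesonide -1.02 ± 0.14 (adjusted p = 3.26e-08) and -1.15 ± 0.14 (adjusted p = 8.43e-10). With formoterol it was -0.08 ± 0.14 and -0.21 ± 0.14, neither past the test.

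VEGFA has 10 probe sets, and they did not tell a single story. Besides the set used, with a mean of 7.34, those with means of 6.91 and 5.93 gave 1.29 and 1.18 for the combination at 1 h and -1.22 and -0.99 for budesonide at 18 h. The 4 with means between 5.61 and 6.50 gave values between -0.06 and 0.19 in the first comparison and between 0.01 and 0.20 in the second. The remaining 3 had means of 4.33 or less. Over the 8 called comparisons of VEGFA, the 9 other probe sets ran the same way in 49 of 72 cases and were also called in 15. With the mean of all VEGFA probe sets, the calls were lost for the combination at 6 h (-0.14, adjusted p = 0.121), formoterol at 1 h (0.19, adjusted p = 0.182) and budesonide at 2 h (-0.19, adjusted p = 0.0759). The transcripts that each set reads were not looked up.

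**Figure D3:**
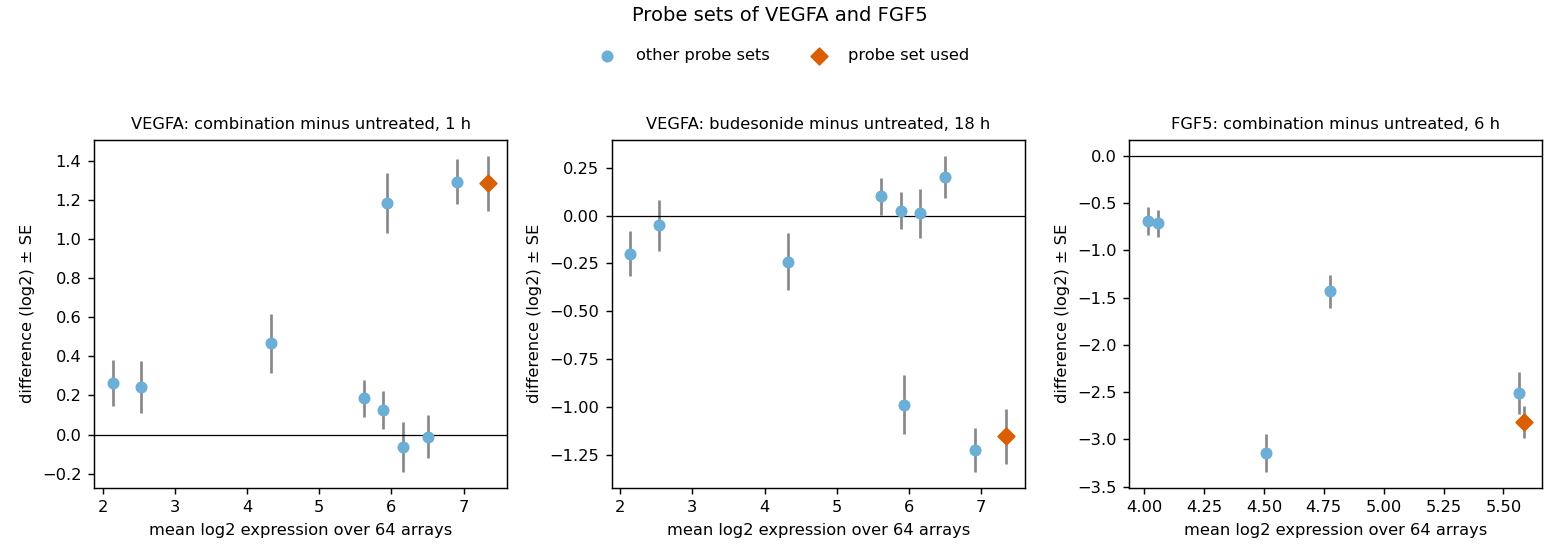
Log2 difference from untreated cells (± SE) of each probe set of VEGFA (combination at 1 h and budesonide at 18 h) and of FGF5 (combination at 6 h) against its mean log2 expression over 64 arrays. Diamonds mark the probe set used. For VEGFA, 3 sets change by about the same amount while 4 others of similar brightness lie near 0, and for FGF5 all 6 lie below 0.

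VEGFC drives the growth of lymphatic vessels through FLT4 and is known to need cleavage with the help of ADAMTS3 and CCBE1. Its gene lies at chr4:176683538-176792922, and a single probe set reads it. At 6 h VEGFC measured 8.21, 8.03, 7.82 and 8.09 in combination cells, 7.99, 7.78, 7.69 and 7.88 in budesonide cells and 8.75, 8.60, 8.64 and 8.72 in formoterol cells, against 8.93, 8.85, 8.71 and 8.73 in untreated cells. Both groups given budesonide lay wholly below the other groups, and formoterol and untreated cells overlapped. VEGFC was 1.70-fold lower with the combination (-0.77 ± 0.08, adjusted p = 7.21e-13) and 1.96-fold lower with budesonide (-0.97 ± 0.08, adjusted p = 1.55e-16). At 18 h it measured 8.07, 8.05, 7.81 and 7.92 in combination cells and 7.99, 7.92, 7.79 and 7.97 in budesonide cells, against 9.01, 8.97, 8.96 and 8.77 in untreated cells. It was then 1.95-fold and 2.01-fold lower with the combination and with budesonide (adjusted p = 1.61e-16 and 2.7e-17), again with no overlap.

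At 2 h VEGFC differed from untreated cells in opposite directions with the single drugs, but neither call was firm. It measured 8.58, 8.42, 8.55 and 8.35 in budesonide cells and 9.04, 8.96, 9.09 and 8.77 in formoterol cells, against 8.82, 8.71, 8.76 and 8.61 in untreated cells. Budesonide cells did not overlap with untreated cells and formoterol cells did. The differences were -0.25 ± 0.08 (adjusted p = 0.039) and 0.24 ± 0.08 (adjusted p = 0.0485). Each was lost without any of several single arrays: the budesonide call without untreated replicate 1, 2 or 3 or budesonide replicate 2 or 4 (-0.26 to -0.21, adjusted p = 0.079 to 0.201), and the formoterol call without untreated replicate 2, 3 or 4 or formoterol replicate 1, 2 or 3 (0.20 to 0.25, adjusted p = 0.0647 to 0.226). Both were also lost after centring each array on its median (adjusted p = 0.0688 and 0.0502) and after repeated quantile normalization (adjusted p = 0.0606 and 0.0672). Neither passed without all arrays numbered 1 (adjusted p = 0.0895 and 0.102) or with the compared arrays alone (adjusted p = 0.202 and 0.278). Without an intensity trend the formoterol call was lost (adjusted p = 0.0546). The sequence before the start of VEGFC, from RefSeq on GRCh38.p14 at chr4:176792923-176793172 on the minus strand, is shown because the core of the cAMP response element lies 8 bases before the start, written in capitals and on the opposite strand.
VEGFC promoter: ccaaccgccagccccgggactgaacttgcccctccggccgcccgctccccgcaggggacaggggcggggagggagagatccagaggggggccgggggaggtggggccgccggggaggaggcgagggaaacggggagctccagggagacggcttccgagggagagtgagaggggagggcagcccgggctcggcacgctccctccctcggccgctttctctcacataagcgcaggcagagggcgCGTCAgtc

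PDGFA and PDGFB form the chains of platelet-derived growth factor, which acts on fibroblasts and smooth muscle through PDGFRA and PDGFRB. Their genes lie at chr7:497258-520700 and chr22:39223359-39244982. At 18 h PDGFA measured 5.32, 5.52, 4.88 and 5.34 in combination cells and 5.61, 5.78, 5.60 and 5.55 in budesonide cells, against 6.06, 6.08, 5.91 and 5.95 in untreated cells. Neither treated group overlapped with untreated cells. PDGFA was 1.66-fold lower with the combination (-0.73 ± 0.18, adjusted p = 0.00114). With budesonide the difference was -0.36 ± 0.18 (adjusted p = 0.169). It passed in the fit blocked on replicate number (adjusted p = 0.0389) and with the compared arrays alone (adjusted p = 0.0185).

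Other calls for the PDGF chains were less firm. PDGFA differed by -0.51 ± 0.18 with budesonide at 6 h (adjusted p = 0.042), a call lost without untreated replicate 1, 2 or 4, budesonide replicate 3 or 4 (-0.53 to -0.39, adjusted p = 0.0599 to 0.211) or with the mean of its probe sets (-0.16, adjusted p = 0.30). With all arrays numbered 1 left out it was also lost (-0.46, adjusted p = 0.217). With the combination at 2 h PDGFA differed by -0.59 ± 0.18 (adjusted p = 0.0199), with overlapping groups, and the call was lost without untreated replicate 2 or 4 or combination replicate 2 or 3 (-0.58 to -0.43, adjusted p = 0.0541 to 0.184), and without all arrays numbered 1 (-0.63, adjusted p = 0.0891). PDGFB at 2 h measured 5.30, 5.21, 5.18 and 4.82 in combination cells, against 5.56, 5.50, 5.76 and 5.40 in untreated cells, with no overlap. The difference of -0.43 ± 0.11 (adjusted p = 0.00423) was lost without combination replicate 4 (-0.32, adjusted p = 0.0633) and with the mean of its 3 probe sets (-0.13, adjusted p = 0.544). With the compared arrays alone the combination calls at 2 h were lost for both chains (adjusted p = 0.091 for PDGFA and 0.0594 for PDGFB). No other probe set of PDGFA or PDGFB was called in these comparisons. No formoterol comparison of either chain passed, with PDGFB between -0.14 and 0.29, although PDGFA at 2 h (-0.38, adjusted p = 0.35) did with a block within each time (adjusted p = 0.0251).

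NRG1, neuregulin 1, binds ERBB3 and ERBB4 and is known for signalling in airway epithelial growth and repair. At 18 h NRG1 measured 5.31, 5.43, 5.27 and 5.07 in combination cells, 5.67, 5.54, 5.61 and 5.61 in budesonide cells and 6.24, 6.42, 6.40 and 6.32 in formoterol cells, against 6.72, 6.87, 6.60 and 6.56 in untreated cells. The 4 groups did not overlap, in this order. NRG1 was 2.67-fold lower with the combination (-1.42 ± 0.14, adjusted p = 6.78e-13) and 2.11-fold lower with budesonide (-1.08 ± 0.14, adjusted p = 4.67e-09), while the formoterol difference of -0.34 ± 0.14 did not pass (adjusted p = 0.306).

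At 6 h NRG1 measured 6.33, 6.39, 6.15 and 5.79 in combination cells, 6.87, 6.93, 6.59 and 6.49 in budesonide cells and 6.53, 6.38, 6.43 and 6.22 in formoterol cells, against 7.12, 7.22, 6.97 and 6.57 in untreated cells. Combination and formoterol cells lay below untreated cells without overlap, and budesonide cells overlapped them. The combination lowered NRG1 by -0.80 ± 0.14 (adjusted p = 4.75e-06) and formoterol by -0.58 ± 0.14 (adjusted p = 0.0038). The formoterol call was lost with the mean of all NRG1 probe sets (-0.22, adjusted p = 0.0601) and without all arrays numbered 1 (-0.58, adjusted p = 0.0591). At 1 and 2 h all 6 differences lay between -0.13 and 0.20 and none passed. With replicate blocks set within each time, the combination at 2 h passed (0.20, adjusted p = 0.0497). Over the 4 called comparisons of NRG1, its 7 other probe sets ran the same way in 25 of 28 cases and were also called in 11. Only 2 of the 7 reached the median of all values in some group.

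HGF, hepatocyte growth factor, is made mainly by mesenchymal cells and acts on epithelium through MET, and its gene lies at chr7:81699010-81770047. Its group means lay between 1.86 and 2.23 on all treatments and times, below the lower quartile of all values. HGF could not be told from background on these arrays, so no fold change is given, and none of its 12 comparisons with untreated cells passed.

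BDNF, brain-derived neurotrophic factor, acts through NTRK2, and its transcription in neurons is a classical target of CREB. The gene lies at chr11:27654893-27722030 and has several promoters. At 1 h BDNF measured 9.85, 9.93, 9.69 and 9.61 in combination cells, 8.73, 8.33, 7.99 and 8.38 in budesonide cells and 10.13, 10.06, 9.86 and 9.61 in formoterol cells, against 8.60, 8.59, 8.18 and 8.38 in untreated cells. Combination and formoterol arrays overlapped and lay above all others, and budesonide and untreated cells overlapped. BDNF was 2.51-fold higher with the combination (1.33 ± 0.13, adjusted p = 1.06e-12) and 2.78-fold higher with formoterol (1.48 ± 0.13, adjusted p = 3.67e-14).

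At 2 h BDNF measured 9.74, 9.25, 9.72 and 9.43 in combination cells, 7.96, 7.67, 7.56 and 7.56 in budesonide cells and 10.32, 9.71, 10.15 and 9.66 in formoterol cells, against 8.41, 8.28, 8.04 and 7.85 in untreated cells. Again the groups given formoterol stood above the others, and budesonide overlapped with untreated cells from below. BDNF was 2.62-fold higher with the combination (1.39 ± 0.13, adjusted p = 9.79e-14) and 3.51-fold higher with formoterol (adjusted p = 7.27e-18). With budesonide it was lower by -0.46 ± 0.13 (adjusted p = 0.0199), a call lost without untreated replicate 1 or 2 or budesonide replicate 2, 3 or 4 (-0.45 to -0.37, adjusted p = 0.0553 to 0.144). That call was also lost with the compared arrays alone (adjusted p = 0.116).

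At 6 h BDNF measured 8.48, 8.49, 8.35 and 8.47 in combination cells, between 7.89 and 8.13 in budesonide cells, and 8.81, 9.05, 8.74 and 8.80 in formoterol cells, against 8.47, 8.38, 8.24 and 8.27 in untreated cells. Formoterol cells still lay above all untreated arrays (0.51 ± 0.13, adjusted p = 0.00619), and combination cells overlapped with them (0.11 ± 0.13, adjusted p = 0.701). Budesonide cells lay below all untreated arrays, and their difference of -0.33 ± 0.13 did not pass (adjusted p = 0.0675). It did with dim genes left out (adjusted p = 0.0473), with the compared arrays alone (adjusted p = 0.0205) and with the mean of all probe sets (-0.41, adjusted p = 0.0026). At 18 h it measured 7.93, 8.23, 7.98 and 8.02 in combination cells, against 8.41, 8.48, 8.25 and 8.23 in untreated cells, and the lowest untreated array lay just above the highest combination array. That difference of -0.30 ± 0.13 did not pass (adjusted p = 0.0819) and did in the fit blocked on replicate number (adjusted p = 0.0324). The same difference passed with the mean of all probe sets (-0.29, adjusted p = 0.0337) and with the compared arrays alone (adjusted p = 0.0201). With budesonide at 18 h the difference of -0.25 ± 0.13 (adjusted p = 0.186) passed with a block within each time (adjusted p = 0.0183). It passed too with the mean of all probe sets (-0.35, adjusted p = 0.0102) and with the compared arrays alone (adjusted p = 0.0422). All 4 other BDNF probe sets ran the same way and were called in each of the 6 comparisons called for BDNF.

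The sequence before the start of BDNF promoter 4 is shown because, of the 5 BDNF promoters in the table used, it alone holds the core of the cAMP response element. It is the RefSeq sequence of GRCh38.p14 at chr11:27701622-27701871 on the minus strand, with the core, on the opposite strand, in capitals, 47 bases before the start.
BDNF promoter 4: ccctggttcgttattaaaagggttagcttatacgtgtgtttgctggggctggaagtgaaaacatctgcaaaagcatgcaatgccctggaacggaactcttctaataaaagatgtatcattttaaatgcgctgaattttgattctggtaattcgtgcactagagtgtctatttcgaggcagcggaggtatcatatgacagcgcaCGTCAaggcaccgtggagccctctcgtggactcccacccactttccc

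Promoters were at hand for 14 starts of FGF2, FGF5, VEGFC, PDGFA, BDNF and HGF, each running from 250 bases before to 50 bases after the start. Both strands were searched. The core TGACG lay in 4 of the 14, those shown for FGF2, VEGFC and BDNF and the first promoter of PDGFA, 166 bases before its start, and in 24.5% of all 34943 promoters. The full cAMP response element, which holds that core, lay in 0 of 14 and in 1.84% of all. The 6-letter core of the glucocorticoid response element, TGTTCT, lay in 1 of 14, promoter 5 of BDNF, and in 14.8% of all, and the full glucocorticoid response element in 0 of 14 and in 0.0029% of all. The AP-1 element TGAGTCA lay in 0 of 14 and 4.96% of all, and the hypoxia response core ACGTG in 3 of 14, all of BDNF, and 21.4% of all. These are matches of letters in a short window.

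By limma's F test, the combination effect differed with time for 6 of 9 factors, where it did for 22.6% of all genes, the budesonide effect for 5, where it did for 12.7%, and the formoterol effect for 4, where it did for 4.51%. FGF5, VEGFA and VEGFC passed for each treatment, BDNF passed for the combination and formoterol, and FGF2 and NRG1 for the combination and budesonide. Comparing untreated cells at 2, 6 and 18 h with those at 1 h, limma called 0 of 9 factors each time, where 0.0165%, 0.21% and 0.364% of all genes were called. At an unadjusted p under 0.05, 7 of these 27 pairs passed, 5 of them at 18 h. In the fit blocked on replicate number, NRG1 at 18 h against 1 h passed (-0.34, adjusted p = 0.0312).

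Adding formoterol to budesonide was read from combination against budesonide cells. In this comparison 2, 4, 3 and 0 factors were called at 1, 2, 6 and 18 h, where 1.47%, 4.38%, 6.72% and 0.651% of all genes were, and at 18 h 2 factors had an unadjusted p under 0.05 in limma. BDNF was 2.66-fold higher in combination than in budesonide cells at 1 h, 3.60-fold at 2 h and 1.36-fold at 6 h (adjusted p = 2.76e-13, 4.1e-18 and 0.0186). The last call was lost without budesonide replicate 3 (0.40, adjusted p = 0.0742) or combination replicate 2 (0.43, adjusted p = 0.0502). VEGFA was 2.72-fold higher at 1 h and 1.97-fold at 2 h (adjusted p = 4.42e-12 and 2.8e-07), and VEGFC 1.29-fold higher at 2 h (adjusted p = 0.000351). FGF5 was lower at 2 h (-0.78 ± 0.17, adjusted p = 0.000807). The VEGFA difference at 18 h was 0.01, with a 95% interval of -0.27 to 0.29, and that of FGF5 at 6 h was -0.21 (-0.54 to 0.13).

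At 6 h FGF2 and NRG1 were lower in combination than in budesonide cells. FGF2 differed by -0.39 ± 0.10 (adjusted p = 0.00417), a call lost with the mean of its 3 probe sets (-0.26, adjusted p = 0.0724). NRG1 differed by -0.55 ± 0.14 (adjusted p = 0.00556), a call lost without combination replicate 4 (-0.42, adjusted p = 0.075) and without all arrays numbered 1 (-0.56, adjusted p = 0.0601). NRG1 at 18 h (-0.34, adjusted p = 0.422) and VEGFC at 6 h (0.21, adjusted p = 0.0959) passed in the fit blocked on replicate number (adjusted p = 0.0291 and 0.0184). PDGFA, PDGFB and HGF passed at none of the 4 times, and PDGFA at 18 h had an unadjusted p of 0.0438 in limma (-0.37).

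Adding budesonide to formoterol was read from combination against formoterol cells. Here 1, 1, 5 and 8 factors were called at the 4 times, where 1.27%, 4.15%, 13.4% and 17.6% of all genes were. VEGFA was higher at 1 h in combination than in formoterol cells (0.69 ± 0.14, adjusted p = 0.000865) and lower at 6 h (-0.69 ± 0.14, adjusted p = 0.000116) and 18 h (-0.93 ± 0.14, adjusted p = 2.79e-07). The 6 h call of VEGFA was lost with the mean of its probe sets (-0.11, adjusted p = 0.293). At 2 h the VEGFA difference of 0.27 (adjusted p = 0.524) passed with a block within each time (adjusted p = 0.049). With the mean of its probe sets it passed too (0.22, adjusted p = 0.0243). At 1 h BDNF differed by -0.15, with a 95% interval of -0.40 to 0.11. It was lower at 2, 6 and 18 h, with differences of -0.42, -0.40 and -0.55 (adjusted p = 0.0361, 0.0224 and 0.000668). The 2 h call of BDNF was lost without formoterol replicate 1 or 3 or combination replicate 2 or 4 (-0.39 to -0.30, adjusted p = 0.129 to 0.326), and the 6 h call without formoterol replicate 2 (-0.33, adjusted p = 0.109) or combination replicate 3 (-0.37, adjusted p = 0.0726). Without all arrays numbered 1 (-0.37, adjusted p = 0.137) and with the compared arrays alone (adjusted p = 0.305) the 2 h call was lost too.

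The other factors called here at 6 h were FGF2 (-0.87), FGF5 (-1.44) and VEGFC (-0.64), and these were called at 18 h too (-0.45, -1.58 and -0.84). At 18 h NRG1 was 2.11-fold lower in combination than in formoterol cells (adjusted p = 5.05e-09), PDGFA 1.59-fold (adjusted p = 0.00379) and PDGFB 1.39-fold (adjusted p = 0.000673). PDGFB then measured 5.39, 5.22, 4.94 and 5.45 in combination cells, against 5.86, 5.53, 5.84 and 5.65 in formoterol cells, with no overlap. The PDGFA call was lost with the mean of its probe sets (-0.23, adjusted p = 0.0682).

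Whether the combination equalled the sum of both drugs was tested as an interaction on the log2 scale, combination minus budesonide minus formoterol plus untreated. It passed for 1, 1, 1 and 0 factors at 1, 2, 6 and 18 h, where 0.171%, 0.59%, 0.722% and 0.276% of all genes passed, and at 18 h 1 factor, FGF5, had an unadjusted p under 0.05 in limma. VEGFA stood above the sum at 1 h by 0.85 ± 0.20 (adjusted p = 0.0415) and at 2 h by 0.79 ± 0.20 (adjusted p = 0.0354). FGF5 stood above it at 6 h by 1.17 ± 0.23 (adjusted p = 0.00198), its decrease of -2.82 with the combination being smaller than the sum of -2.61 and -1.38. That sum would put FGF5 at a level of 2.63, below the lower quartile of all values, against 3.80 measured. The FGF5 interaction at 2 h was 0.77 ± 0.23 (adjusted p = 0.19) and passed with a block within each time (adjusted p = 0.00658). In the fit blocked on replicate number, FGF5 at 18 h (0.90, adjusted p = 0.0301) and VEGFC at 6 h (0.33, adjusted p = 0.0262) passed as well. FGF5 at 18 h also passed with the mean of its probe sets (0.75, adjusted p = 0.0058). For BDNF the interaction lay between -0.30 and 0.03 and passed at no time, with a 95% interval of -0.33 to 0.39 at 2 h. FGF2, PDGFA, PDGFB, NRG1 and HGF passed at none of the 4 times, and PDGFB at 1 h had an unadjusted p of 0.0324 in limma (-0.34).

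The VEGFA interactions depended on single arrays, and that at 1 h was also lost with the compared arrays alone (0.85, adjusted p = 0.0874). At 1 h the call was lost without all arrays numbered 1 (0.81, adjusted p = 0.504), without an intensity trend (adjusted p = 0.0567), after repeated quantile normalization (0.83, adjusted p = 0.0535), and in 10 of 16 fits that left out a single array (0.75 to 0.84, adjusted p = 0.081 to 0.184), namely without untreated replicate 1, 3 or 4, budesonide replicate 1, 2 or 3, formoterol replicate 1 or 2 or combination replicate 3 or 4. At 2 h it was lost without all arrays numbered 1 (0.76, adjusted p = 0.333) and in 9 of 16 (0.71 to 0.81, adjusted p = 0.0504 to 0.133), namely without untreated replicate 3 or 4, budesonide replicate 1, 2 or 4, formoterol replicate 2 or 4 or combination replicate 1 or 3. On the linear scale VEGFA at 1 h measured 439 in combination cells, 163 in budesonide cells and 274 in formoterol cells, against 181 in untreated cells, which puts the combination 182 above the sum.

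**Figure D4:**
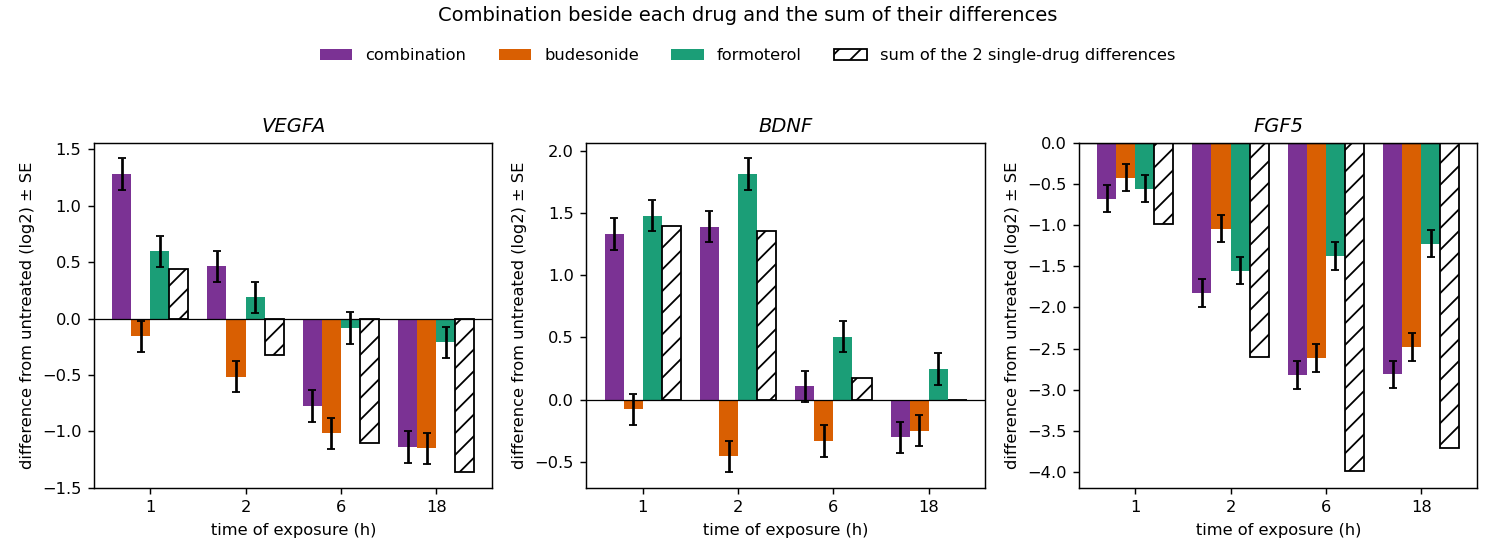
Log2 difference from untreated cells (± SE) of VEGFA, BDNF and FGF5 at each time for the combination, budesonide and formoterol, beside the sum of both single-drug differences (hatched, no error drawn). VEGFA stands above its sum at 1 and 2 h, and FGF5 falls less than its sum at 6 h.

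The drugs were also set against each other directly. All 18 called pairs of factor and time were lower in budesonide than in formoterol cells: 2, 3, 6 and 7 factors at 1, 2, 6 and 18 h, where 1.32%, 3.76%, 9.63% and 8.09% of all genes were lower. BDNF was 2.94-fold, 4.82-fold, 1.79-fold and 1.41-fold lower in budesonide cells at the 4 times (adjusted p = 2.97e-15, 1.58e-22, 3.16e-07 and 0.0027). VEGFA was 1.69-fold, 1.63-fold, 1.91-fold and 1.92-fold lower (adjusted p = 0.000111, 0.000152, 2.53e-07 and 2.42e-07). VEGFC was lower from 2 h on (-0.49, -0.84 and -0.89), with a difference of -0.19 at 1 h (adjusted p = 0.421) that passed with a block within each time (adjusted p = 0.0304).

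FGF5 differed by -1.24 at 6 h and -1.25 at 18 h between budesonide and formoterol cells, and by 0.51 ± 0.17 at 2 h (adjusted p = 0.0548). The 2 h difference passed in the fit blocked on replicate number (adjusted p = 0.0328) and with dim genes left out (adjusted p = 0.0377). FGF2 differed by -0.48 at 6 h and -0.35 at 18 h, and the second call was lost without all arrays numbered 1 (-0.29, adjusted p = 0.0832). NRG1 differed by -0.74 at 18 h (adjusted p = 3.29e-05) and PDGFB by -0.51 (adjusted p = 0.000259). At 6 h NRG1 was higher in budesonide cells by 0.33, which did not pass in the main fit. It passed in the fit blocked on replicate number (adjusted p = 0.0051). The deviations of same-numbered arrays in this contrast correlated unevenly, at 0.235, -0.0168, 0.139 and 0.303. PDGFA differed by -0.55 at 6 h (adjusted p = 0.0216), a call lost without budesonide replicate 3 (-0.43, adjusted p = 0.132), formoterol replicate 2 (-0.39, adjusted p = 0.163) or with the mean of its probe sets (-0.18, adjusted p = 0.189). HGF passed at none of the 4 times, and none of its unadjusted p-values in limma was under 0.05.

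Receptors and co-receptors of these factors were read beside all genes. Of 23 measured, 4 rose and 5 fell at 6 h of the combination, while 1 rose and 6 fell at 18 h, where 8.61% and 9.95% of all genes rose and fell at 6 h and 10.3% and 10.7% at 18 h. Budesonide gave 2 that rose and 4 that fell at 6 h, and 1 that rose and 5 that fell at 18 h, where it raised and lowered 6.12% and 8.12% of all genes at 6 h and 8.56% and 9.78% at 18 h. With formoterol 1 fell at 2 h and 2 at 6 h, where 2.29% and 2.06% of all genes fell. NRP1, neuropilin 1, a co-receptor of VEGFA, averaged 4.40 in combination cells and 4.47 in budesonide cells, against 7.19 in untreated cells at 18 h (-2.79 ± 0.24 and -2.72 ± 0.24). SDC1, a heparan sulfate proteoglycan that holds fibroblast growth factors, fell by 1.39 with the combination and by 0.89 with budesonide at 18 h. ERBB3, the receptor of NRG1, fell by 1.39 with the combination and 1.04 with budesonide at 6 h, and by 0.46 with formoterol at 2 h.

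PDGFRB, the receptor of PDGFB, rose at 18 h by 0.92 with the combination and 0.60 with budesonide on the log2 scale, averaging 9.57 and 9.26, against 8.66 in untreated cells. PDGFRL, a receptor-like relative, rose by 0.74 with the combination at 6 h. KDR, the endothelial receptor of VEGFA, rose by 0.73 and 0.70 at 6 h of the combination and of budesonide, at low levels of 4.87 and 4.84, against 4.13 in untreated cells. EGFR changed by 0.33 with budesonide and by -0.29 with formoterol at 6 h. The median difference of the list lay between -0.02 and 0.105 over the 12 comparisons, beside -0.02 to 0.03 for all genes.

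**Figure D5:**
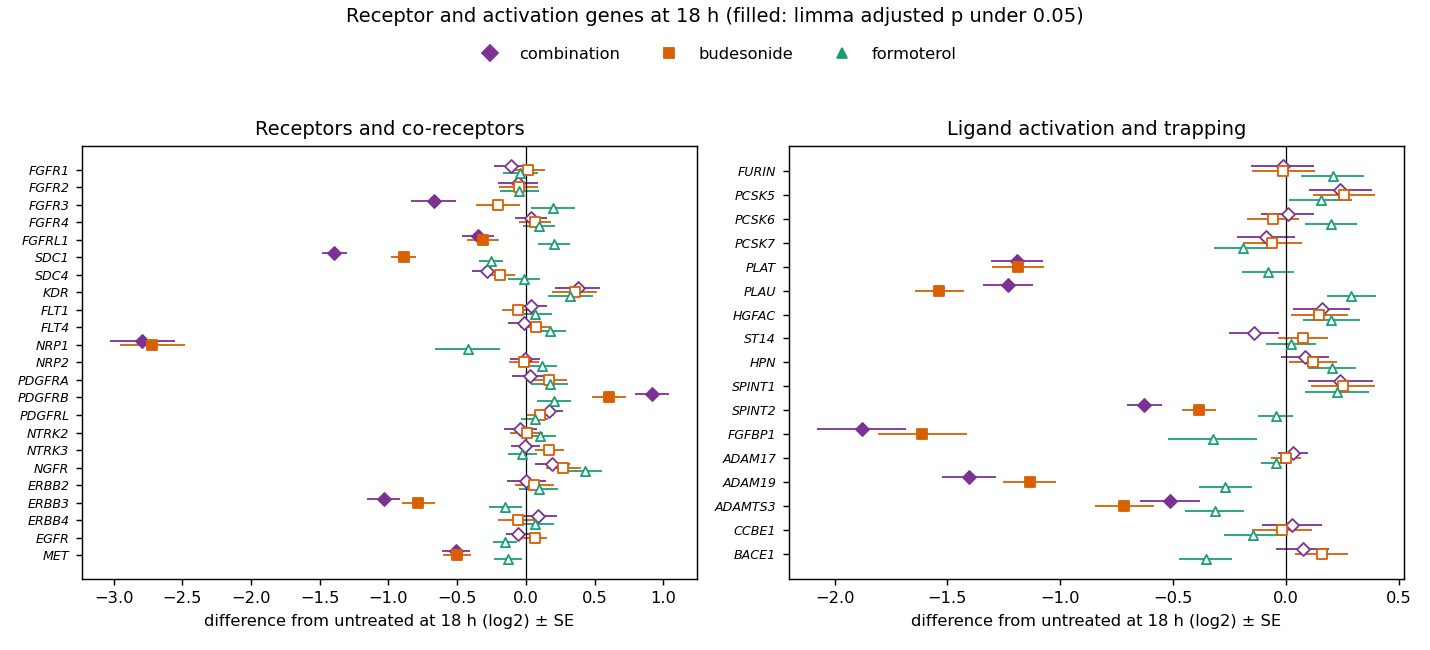
Log2 difference from untreated cells at 18 h (± SE) of each measured receptor or co-receptor and of each activation or trapping gene, for the combination, budesonide and formoterol from top to bottom within a gene. Filled points passed limma's adjusted p under 0.05. NRP1 lies near -2.8 with the combination and near -2.7 with budesonide, and PDGFRB is the receptor that rose.

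Of 17 measured genes whose proteins activate, release or trap the ligands, 3 rose and 5 fell with the combination at 6 h and 6 fell at 18 h, where 8.61% of all genes rose and 9.95% fell at 6 h and 10.7% fell at 18 h, while budesonide raised 1 and lowered 4 at 6 h, and lowered 6 at 18 h, where it raised 6.12% and lowered 8.12% of all genes at 6 h and lowered 9.78% at 18 h. PLAT, tissue plasminogen activator, which makes plasmin, a protease that cleaves proBDNF, rose by 3.16 ± 0.12 with the combination at 2 h, averaging 11.8, against 8.61 in untreated cells. It rose by 1.73 with budesonide at 6 h and by 0.63 with formoterol at 2 h, but at 18 h it averaged 7.32 in both combination and budesonide cells, against 8.51 in untreated cells (-1.19 ± 0.12 in both), a time chosen after its values were seen. PLAU, urokinase, fell by 1.45 with the combination at 6 h and by 1.54 with budesonide at 18 h. ADAMTS3, which helps to process VEGFC, fell by 1.63 with the combination and by 1.90 with budesonide at 6 h, against an untreated mean of 5.53. FGFBP1, which frees FGF2 from the matrix, averaged 2.76 in combination cells and 3.03 in budesonide cells, against 4.64 in untreated cells at 18 h (-1.88 ± 0.20 and -1.61 ± 0.20), so that its treated levels lay near the lower quartile of all values. The list's median difference lay between -0.04 and 0.07 over the 12 comparisons.

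Among 25 other ligands of the same families 20 were dim, with no group mean at the median of all values. FGF1, acidic fibroblast growth factor, averaged 5.06 in combination cells and 5.43 in budesonide cells, against 7.22 in untreated cells at 18 h (-2.16 ± 0.14 and -1.80 ± 0.14), and fell by 0.70 with formoterol at 6 h. PDGFC rose by 0.80 with the combination and 0.78 with budesonide at 18 h, and changed by -0.34 with formoterol at 6 h. FGF9 rose by 0.93 with formoterol at 1 h, averaging 7.56, against 6.64 in untreated cells, and fell by 0.95 with budesonide at 6 h. FGF13, an intracellular relative, fell by 0.44 with the combination and by 0.47 with budesonide at 18 h. In all, 1 ligand rose and 3 fell with the combination and 2 rose and 2 fell with budesonide at 18 h, beside 10.3% and 10.7%, and 8.56% and 9.78%, of all genes, and the list's medians were -0.03 and 0.00, beside 0.03 for all genes.

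Of 14 measured feedback inhibitors of receptor tyrosine kinases, 6, 5, 2 and 2 rose and 1, 1, 4 and 3 fell with the combination at 1, 2, 6 and 18 h. With budesonide 4, 4, 1 and 2 rose at these times and 1, 5 and 3 fell at 2, 6 and 18 h. With formoterol 3, 1 and 1 rose and 1, 1 and 1 fell at 1, 2 and 6 h. At 1 h, 1.63% of all genes rose and 1.13% fell with the combination, 0.667% and 0.331% with budesonide, and 1.02% and 0.32% with formoterol. At 2 h these shares were 3.84% and 5.65%, 1.69% and 2.26%, and 2.31% and 2.29%, in the same order. At 6 h they were 8.61% and 9.95%, 6.12% and 8.12%, and 2.76% and 2.06%. At 18 h they were 10.3% and 10.7% with the combination and 8.56% and 9.78% with budesonide. The list's median at 1 h was 0.18, 0.05 and 0.09 with the combination, budesonide and formoterol, beside -0.01, -0.02 and -0.02 for all genes. ERRFI1, which blocks the EGF receptor, rose by 3.23 with the combination and by 2.88 with budesonide at 2 h. SPRY2, a Sprouty protein, rose at 1 h by 2.17 with the combination, 0.93 with budesonide and 0.85 with formoterol. DUSP5, an ERK phosphatase, rose by 1.85 with the combination and 0.80 with formoterol at 1 h and fell by 1.22 with the combination at 6 h. DUSP6, a phosphatase that ERK signalling itself induces, fell by 1.62 with the combination and fell by 1.38 with formoterol at 2 h. LRIG1, a membrane inhibitor of the EGF receptor family, fell by 1.64 and 1.63 at 18 h of the combination and of budesonide and rose by 0.91 with formoterol at 2 h.

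Hypoxia-induced genes, of which VEGFA is a classical member, moved in both directions. Of 13 measured, 4 rose with the combination at 2 h, where 3.84% of all genes did, and at 18 h 2 rose and 4 fell with the combination and 2 rose and 5 fell with budesonide, where 10.3% and 10.7%, and 8.56% and 9.78%, of all genes did. ANKRD37 rose at 2 h by 2.02 with the combination and 1.88 with formoterol, NDRG1 at 6 h by 2.44, 2.20 and 0.72 with the combination, budesonide and formoterol, and ADM by 0.84 with the combination at 1 h. At 18 h PDK1 fell by 1.14 with the combination and fell by 1.25 with budesonide, and SLC2A1 fell by 0.92 and fell by 1.04. The list's median was -0.17 with the combination and -0.23 with budesonide at 18 h, beside 0.03 for all genes in both.

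Known target genes of both pathways were read in the same fit, and PER1 and DUSP1 belong to both lists. Of 16 genes induced by cyclic AMP and CREB, 9, 10, 8 and 4 rose with the combination at 1, 2, 6 and 18 h, 3 at each time with budesonide and 10, 12, 8 and 5 with formoterol. Of all genes, 1.63%, 3.84%, 8.61% and 10.3% rose with the combination at these times. The shares were 0.667%, 1.69%, 6.12% and 8.56% with budesonide and 1.02%, 2.31%, 2.76% and 0.469% with formoterol. The median of the 16 genes at 2 h was 1.96 with the combination, 0.07 with budesonide and 1.85 with formoterol. For all genes it was -0.001, -0.01 and 0.001. With budesonide 1, 1, 2 and 3 of the 16 fell, where 0.331%, 2.26%, 8.12% and 9.78% of all genes fell. With the combination 1, 1 and 2 fell at 2, 6 and 18 h, where 5.65%, 9.95% and 10.7% of all genes did. NR4A3 rose by 6.28 and LINC00473 by 5.13 with formoterol at 2 h, and by 4.51 and 4.50 with the combination. Beside the same shares of all genes, 15, 16, 17 and 17 of 18 genes induced by glucocorticoids rose with the combination. Of these 18, 14, 16, 17 and 17 rose with budesonide and 7, 7, 5 and 4 with formoterol. Their median at 2 h was 3.18 with the combination, 2.63 with budesonide and 0.20 with formoterol. TSC22D3 rose by 5.47 with the combination and by 5.20 with budesonide at 6 h, and SGK1 by 3.60 with formoterol at 1 h.

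Over the 16 group means, each factor called at least once was set against 1951 genes that reached the median of all values in some group and varied with an SD of at least 0.25. Nearest to BDNF were NR4A3 (Pearson's r = 0.966), OTUD1 (0.965) and NR4A2 (0.950). Nearest to VEGFA were DUSP4 (0.912), HBEGF (0.894) and LRP12 (0.882), and nearest to VEGFC were TPST2 (0.984), AMIGO2 (0.975) and CDK6 (0.967). FGF2 lay nearest to PKP4, NR3C2 and UACA (0.957 to 0.971), FGF5 to NMT2, RGMB and PRDM8 (0.953 to 0.955), and NRG1 to SLC2A6, RCAN2 and PODXL (0.970 to 0.976). PDGFA and PDGFB had no neighbour above 0.833, with AQP11, FZD2 and ARRDC4 nearest to PDGFA and ABL2, DTX2 and NOCT to PDGFB. Among the factors themselves VEGFA and VEGFC were the most alike (0.824). These values describe 16 groups that share cell line, times and drugs, and the candidates were the most similar of many.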

How the data were processed

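RNA from 64 BEAS-2B cultures was measured on Affymetrix arrays. The authors deposited log2 expression values for 49395 probe sets, summarised with RMA per the submitters' processing notes; its version, and whether all arrays were normalized together, are not given in the sources used here. Of these probe sets 44994 carry 1 gene symbol, 1832 several and 2569 none in the platform annotation. The brightest probe set was kept for each of 18132 genes. Groups come from the sample titles. No 2 arrays held identical values. The number of arrays limits the precision.

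A linear model over the 16 groups was fitted to all genes with limma 3.58.1 (R 4.3.3), with an intensity trend and 48 residual degrees of freedom. Contrasts compared groups at the same time, and p-values were adjusted by Benjamini-Hochberg over all genes, separately for each contrast. Effects were compared between times by F tests. The procedure was tested on simulated data. Tables and figures used Python 3.11.15, pandas 2.3.3 and matplotlib 3.10.9. Same-numbered arrays deviated together, with a correlation above 0.1 for all 4 numbers, in 14 of 27 contrasts, and the numbers come from the sample titles.

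The 9 factors and the related gene lists were chosen with earlier results of these data known. The rule for named genes allowed all 9 in every contrast. From each list and treatment, up to 3 called genes with the largest change in each direction were eligible to be named. Likeness used the 3 genes of highest correlation over group means. The alternatives were 2 forms of replicate block, median centring, repeated quantile normalization, removal of dim genes, no intensity trend, the mean of a gene's probe sets, removal of arrays, a fit to the compared arrays alone and a linear scale for the interaction.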

Additional observations from a re-analysis of the deposited data

Results flagged for a closer look

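Of 144 combinations of factor and group, 6 had an array far from the other 3, and chance alone gives about 5% of groups such an array. FGF5 with formoterol at 2 h had its highest array at 5.84. PDGFA had its lowest array at 4.84 with budesonide at 6 h and at 5.22 in untreated cells at 1 h. NRG1 in untreated cells at 1 h had its lowest array at 6.79. HGF, which lay at background, had its highest array at 2.38 with the combination at 18 h and at 2.31 in untreated cells at 6 h.

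The treatment effect differed between 1, 2, 6 and 18 h by limma's F test for these factors. With the combination the adjusted p was 8.74e-09 for FGF2, 8e-12 for FGF5, 2.22e-16 for VEGFA, 8.76e-15 for VEGFC, 1.6e-13 for BDNF and 1.48e-09 for NRG1. With budesonide it was 0.000444 for FGF2, 2.06e-12 for FGF5, 0.000191 for VEGFA, 2.36e-12 for VEGFC and 1.17e-05 for NRG1. With formoterol it was 0.017 for FGF5, 0.0202 for VEGFA, 0.0375 for VEGFC and 1.44e-10 for BDNF.

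The effect of adding formoterol differed with and without budesonide, by the interaction test, for VEGFA at 1 h (0.85 on the log2 scale) and 2 h (0.79) and for FGF5 at 6 h (1.17).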

How the results depend on the processing

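Across the comparisons, 87 pairs of factor and contrast were called, and none changed direction under any alternative run. With the replicate number as a block all 87 stayed called and 13 more passed, and with blocks within each time all 87 stayed called and 22 more passed. Of these gains, 4 and 8 fell in contrasts where the correlation of same-numbered arrays was not above 0.1 for all 4 numbers. Some of these came close, as budesonide against untreated cells at 6 h (0.414, 0.0902, 0.183 and 0.267). With the replicate block they were BDNF (adjusted p = 0.0228) and NRG1 (0.0391) with budesonide at 6 h, NRG1 with formoterol at 18 h (0.0219), and NRG1 between the drugs at 6 h (0.0051). Where all 4 correlations were above 0.1, the block changed no call beyond those given with the results. Centring on the median kept 85, repeated quantile normalization 84, removal of dim genes 87, the averaged probe sets of a gene 77, a fit without intensity trend 85, leaving out all arrays numbered 1 74, and a fit to the compared arrays alone 79. Pairs not called in the main fit also passed, 2 with dim genes removed, 5 with averaged probe sets and 4 with the compared arrays alone. The number of interactions called was 5 with the replicate block, 6 with blocks within each time and 1 without the arrays numbered 1, against 3. On the linear scale VEGFA stayed above the sum of both drugs at 1 and 2 h, while for FGF5 at 6 h that sum is -44.1, a level no array can have, so that scale tests nothing there. Of the untreated comparisons between times, 1 passed with the replicate block, against 0, and the fit with blocks within each time was not used there, since those blocks do not pair arrays of different times. Leaving out single arrays gave 17 to 20 calls for the combination, 11 to 14 for budesonide and 7 to 10 for formoterol against untreated cells. It gave 8 to 10 for combination against budesonide, 14 to 15 for combination against formoterol, 17 to 19 for budesonide against formoterol, 2 to 4 for the interaction, 0 for untreated cells between times and 13 to 16 for the F tests. The causes were not tested. HGF lay below the lower quartile of all values, and no difference was read for it.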
